A study of Bos taurus with 79 samples.

Results

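The genes described here build the junctions between neighbouring cells and the keratin filaments inside epithelial cells. They were taken by symbol from the platform annotation: claudins, keratins, cadherins, tight junction plaque proteins (TJP), desmocollins, desmogleins, plakophilins and connexins (GJA, GJB or GJC) with a number, every symbol beginning with CTNN, and JUP. The choice gave 94 probe sets for 63 genes, of 24016 probe sets tested and 9155 named genes. There were 17 keratin genes, 14 claudins, 10 cadherins, 9 desmosome genes, 6 connexins, 5 genes of the CTNN symbols and 2 plaque genes, TJP1 and TJP3. For 26 of the genes there was more than 1 probe set, and such a gene is described through its brightest probe set, with the others where they differ.

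Endometrium, the inner lining of the uterus, came from 79 cross-bred beef heifers whose estrous cycles had been synchronized, with 1 Affymetrix bovine array per animal. Cyclic heifers with normal progesterone (CN), cyclic heifers with high progesterone (CH), pregnant heifers with normal progesterone (PN) and pregnant heifers with high progesterone (PH) were slaughtered at 1 of 4 times in the cycle or in early pregnancy, on days 5, 7, 13 and 16. High progesterone came from a PRID, a progesterone-releasing intravaginal device inserted on day 3 and left until slaughter, and pregnant heifers had been inseminated and were found pregnant. Each of the 16 groups held 5 arrays, labelled as biological replicates, except CH on day 7, which held 4; CN 2, for example, stands for the second replicate of that arm.

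Tight junctions seal the space between epithelial cells and are built of claudins, some of which close the seal while others form ion-selective pores, tied to the cytoskeleton by plaque proteins. Adherens junctions (E-cadherin with its catenins) and desmosomes (desmosomal cadherins with plakoglobin and plakophilins, attached to keratin filaments) hold the cells together, and gap junctions, made of connexins, let small molecules pass between them. In ruminants the conceptus attaches to the surface epithelium without deep invasion, so the epithelial sheet and its junctions stay between mother and conceptus during the days studied.

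Levels are the deposited log2 values, given as mean ± SD over arrays, and differences are log2 differences ± SE from limma, with p adjusted over all 24016 probe sets by the Benjamini-Hochberg method; a probe set is called changed when that p is under 0.05. The RNA came from whole strips of tissue, so fewer cells of a type and less RNA per cell cannot be told apart. Array medians lay between 4.71 and 5.12. Smooth muscle markers averaged over 10 in 3 arrays (day 5 PN 4, day 7 PH 5 and day 13 PH 4), against a median of 7.56 over all arrays, and the epithelial marker mean was lowest, at 7.48, in day 13 PH 4. Together with that array, 4 others stood apart from their groups: day 5 CH 3, in which leukocyte markers averaged 7.93 against a median of 4.73, day 7 CN 5, day 7 CH 3 and day 13 PH 1. All 11 trophoblast genes measured had means under 3. Precision is limited by having at most 5 arrays in a group.

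The epithelial label fitted most of the markers that could be read. EPCAM, a surface protein of simple epithelia, had a mean level of 12.94, and the 13 epithelial markers together averaged between 7.48 and 8.84 in each array. KRT18, a keratin of simple epithelia, had a mean of 10.02 and ran from 8.95 to 10.73 over the 79 arrays. KRT8, the usual filament partner of KRT18, went against this: its probe set stayed between 2.16 and 2.59 in all arrays, where no change could be seen. Not every member marks epithelium: CDH5 and CLDN5 belong to endothelial junctions, CDH2, CDH11 and CDH13 are cadherins of other cell types, and CTNNAL1, CTNNBIP1 and CTNNBL1 carry the catenin prefix without being structural parts of the junction.

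Of the 94 probe sets 47 had a mean under 3, near the floor of the values, against 32.2% of all probe sets, and 40 stayed below 3 in every group mean. Changes in this range are compressed. The dark ones were mainly keratins, with 17 of 25 probe sets under 3 in every group, and 18 genes, 9 of them keratins, had no probe set above 3 in any group. The range between the highest and the lowest of the 16 group means exceeded 2 in 10 members (10.6%) and in 7.26% of all probe sets. The widest ranges were those of CLDN10 at 5.22, CLDN4 at 4.78, GJB5 at 4.75, GJB1 at 4.23 and KRT7 at 3.58; those of CTNNA1 and CTNNB1 were 0.57 and 0.56.

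Time was the factor over which most junction genes were called. From day 5 to day 7, averaged over the 4 arms, 16 members were called, 6 higher (8.84% of all probe sets were called higher) and 10 lower (11.8% of all), where 20.7% of all probe sets were called in either direction. From day 7 to day 13 there were 31, with 17 higher and 14 lower, against 36.9% of all probe sets called, 18.8% higher and 18.1% lower. From day 13 to day 16 there were 11, with 5 higher and 6 lower, against 8.65% of all, 5.03% higher and 3.62% lower. The members' shares, 17.0%, 33.0% and 11.7%, were thus near the background of all probe sets. In all 39 probe sets of 32 genes were called in at least 1 step, while 55 were called in none, and CTNNBIP1, CTNNA1 and DSC2 were called in all 3 steps. The median difference of the members was 0.01, -0.01 and 0.00 in the 3 steps, and that of all probe sets 0.01, -0.01 and 0.00.

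**Figure D1:**
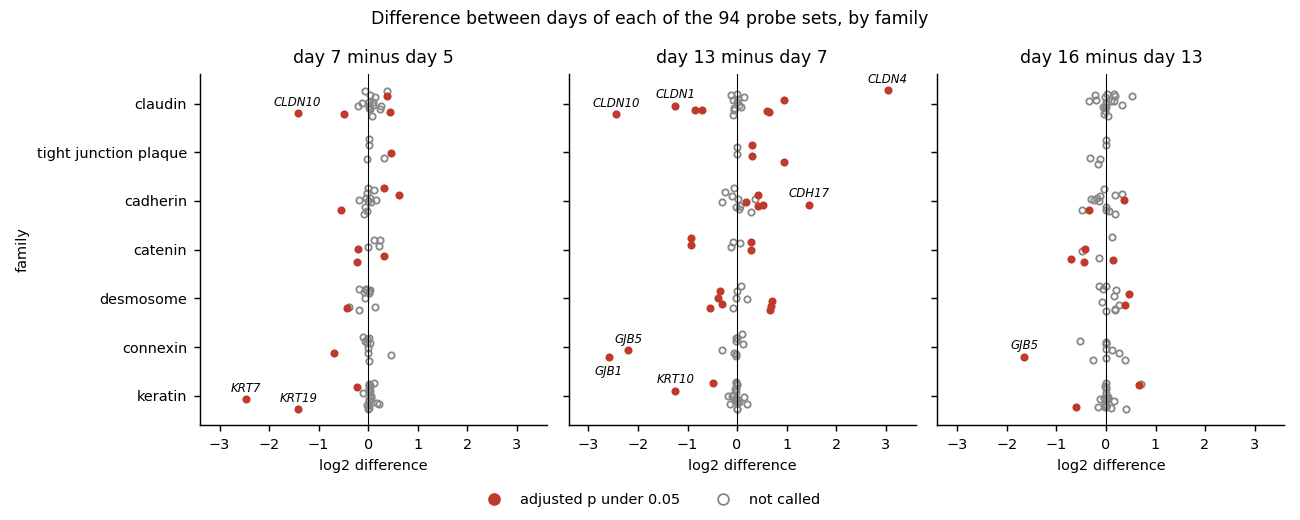
Log2 difference between successive days, averaged over the 4 arms, of each of the 94 probe sets (points) in 7 families (rows); filled red points have an adjusted p under 0.05, open points do not, and called members beyond 1 in either direction are named. The middle step, from day 7 to day 13, holds the rise of CLDN4 by 3.04 and the falls of GJB1, CLDN10 and GJB5, while KRT7 and KRT19 fell in the first step.

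Claudins were called in both directions. From day 7 to day 13 CLDN4, a claudin that tightens the seal, rose, whereas CLDN10, known as a pore-forming claudin, and CLDN1, another sealing claudin, fell. CLDN4 (gene ID 414921) ran from 5.34 to 7.21 with a median of 6.31 on day 5, from 4.61 to 7.65 with a median of 6.58 on day 7, from 8.07 to 10.92 with a median of 9.62 on day 13, and from 8.66 to 11.74 with a median of 10.27 on day 16. Every array of days 13 and 16 therefore lay above every array of days 5 and 7. The rise from day 7 to day 13 was 3.04 ± 0.19, an 8.22-fold increase (adjusted p = 7.52e-22, limma), 2.74 in cyclic and 3.34 in pregnant heifers taken alone. The steps before and after it were 0.24 ± 0.19 (adjusted p = 0.43) and 0.52 ± 0.19 (adjusted p = 0.065), and were not called.

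CLDN10 (gene ID 506545) went the other way over 2 steps. Its arrays ran from 9.38 to 12.81 with a median of 11.55 on day 5, from 7.86 to 12.004 with a median of 10.25 on day 7, from 4.97 to 9.20 with a median of 7.60 on day 13, and from 5.18 to 8.90 with a median of 7.59 on day 16. Neighbouring days overlapped, but all arrays of day 5 lay above all those of day 13. It fell by 1.42 ± 0.30 from day 5 to day 7 (adjusted p = 0.000219) and by 2.44 ± 0.30 from day 7 to day 13 (adjusted p = 3.65e-10), folds of 2.68 and 5.43; from day 13 to day 16 the difference was -0.23 ± 0.30 (adjusted p = 0.87). The difference of the middle step was -2.49 in cyclic and -2.39 in pregnant heifers taken alone.

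CLDN1 was among the brightest members and fell from a mean of 12.65 ± 0.32 (n = 19) on day 7 to 11.78 ± 0.55 (n = 20) on day 13, a difference of -0.86 ± 0.12 (adjusted p = 1.69e-08); its other probe set gave -1.24 ± 0.12 (adjusted p = 1.04e-13). CLDN7, an epithelial claudin found also along the sides of cells, first rose by 0.44 ± 0.15 from day 5 to day 7 (adjusted p = 0.0229) and then fell by 0.70 ± 0.15 to day 13 (adjusted p = 7.15e-05). CLDN3, a sealing claudin, rose in both steps, by 0.37 ± 0.12 (adjusted p = 0.0153) and 0.64 ± 0.12 (adjusted p = 7.86e-06). The early rise of CLDN7 was not called without day 5 PH 4, with 0.38 and an adjusted p of 0.0526.

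CLDN11, which seals myelin and the barrier of the testis, rose by 0.95 ± 0.28 from day 7 to day 13 (adjusted p = 0.00479), with arrays spread from 4.03 to 8.32 over all days. CLDN5, the claudin of endothelium, rose by 0.61 ± 0.17 in the same step (adjusted p = 0.00344), as did CDH5, the endothelial cadherin, by 0.43 ± 0.11 (adjusted p = 0.00106). Of the 13 endothelial markers 10 rose and none fell in that step, where 18.8% of all probe sets were called higher. The mean of the list ran from 4.95 to 5.83 on day 7 and from 5.46 to 6.36 on day 13. The part of the endothelial markers in the rise of CLDN5 and CDH5 was not tested. CLDN6, a claudin of embryonic epithelia, fell by 0.49 ± 0.15 from day 5 to day 7 (adjusted p = 0.0161), but its level was near the floor, at 3.06 ± 0.66 (n = 20) and 2.58 ± 0.68 (n = 19). In all, of 19 claudin probe sets 4 rose and 4 fell from day 7 to day 13, against 18.8% and 18.1% of all probe sets. From day 5 to day 7, 2 rose and 2 fell, against 8.84% and 11.8% of all. These counts were near the background. None of 19 was called from day 13 to day 16, against 8.65% of all.

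**Figure D2:**
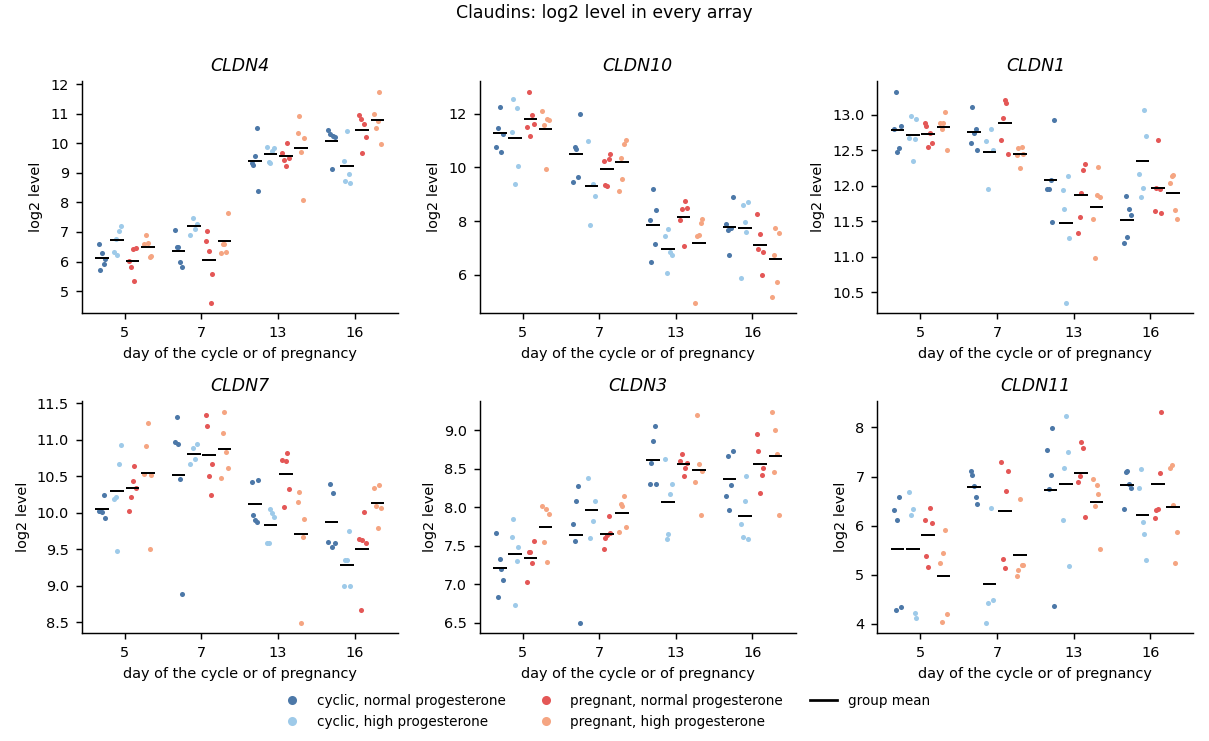
Log2 level (vertical axes, each with its own range) of 6 claudins in every array (points) by day, coloured by group, with group means as black bars. CLDN4 is above 8 in all arrays of days 13 and 16 and below 8 in all arrays of days 5 and 7, CLDN10 falls from a mean of 11.41 on day 5 to 7.32 on day 16, and CLDN11 on day 7 is lower in both high progesterone groups.

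Among the plaque genes TJP3, which links claudins to the cytoskeleton, ran from 5.28 to 7.52 with a median of 6.65 on day 7 and from 6.24 to 8.53 with a median of 7.52 on day 13. The days overlapped, with a difference of 0.95 ± 0.15 (adjusted p = 1.8e-07). Its second probe set rose from day 5 to day 7 by 0.47 ± 0.12 (adjusted p = 0.00371) and to day 13 by 0.30 ± 0.12 (adjusted p = 0.048), while the third was at the floor. TJP1, the founding member of the plaque family, was low at 3.43 on average and rose by 0.31 ± 0.13 from day 7 to day 13 (adjusted p = 0.0483).

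Of 9 measured partners of the tight junction outside the members, a list written with earlier results known, 5 rose from day 7 to day 13 and none fell, where 18.8% of all probe sets were called higher and 18.1% lower. The median difference of the 9 was 0.46, against -0.01 over all probe sets. CGN, the plaque protein cingulin, rose by 1.83 ± 0.11 (adjusted p = 5.72e-22) and had already risen by 0.63 ± 0.11 from day 5 to day 7 (adjusted p = 1.62e-05). F11R, the junctional adhesion molecule A, rose by 0.51 ± 0.07 and then by 0.69 ± 0.07. From day 5 to day 7 CGN and F11R were the 2 called partners of the 9, and from day 13 to day 16 CGN alone was called, higher by 0.36 ± 0.11 (adjusted p = 0.028).

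Of the gap junction genes GJB1 and GJB5 fell steeply, while GJA1 was called in no step. GJB1 (gene ID 281194), the main connexin of liver cells, ran from 5.35 to 7.498 with a median of 6.75 on day 5, from 3.09 to 7.63 with a median of 6.23 on day 7, from 2.5001 to 4.71 with a median of 3.14 on day 13, and from 2.63 to 3.80 with a median of 2.698 on day 16. It was near the floor in most arrays from day 13 onward, and 1 array of day 7, CH 3, reached down into that range. It fell by 0.68 ± 0.19 from day 5 to day 7 (adjusted p = 0.00618) and by 2.59 ± 0.19 from day 7 to day 13 (adjusted p = 2.91e-18), a 6.02-fold decrease that the floor compresses. The first of these falls was not called with array weights (-0.41, adjusted p = 0.0751). The other probe sets of GJB1 stayed at the floor, at 2.27 and 2.07 on average, and carried no information.

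GJB5 (gene ID 524030), a connexin of stratified epithelia and trophoblast, fell in the later steps. Its arrays ran from 8.43 to 10.21 with a median of 9.17 on day 5, from 6.86 to 10.87 with a median of 9.90 on day 7, from 4.40 to 9.20 with a median of 7.84 on day 13, and from 3.82 to 7.24 with a median of 6.11 on day 16. All arrays of day 16 were thus below all arrays of day 5, and 1 array of day 7, CN 5, lay within the range of day 16. The falls were 2.19 ± 0.27 from day 7 to day 13 (adjusted p = 5.31e-10) and 1.65 ± 0.27 from day 13 to day 16 (adjusted p = 1.33e-05), folds of 4.57 and 3.14. GJA1, the most widespread connexin and also expressed in uterine stroma and muscle, stayed between 11.73 and 14.05 in all arrays, with differences of -0.11, -0.06 and 0.27 in the 3 steps (adjusted p = 0.60, 0.74 and 0.17). GJB2, GJB6 and GJC1 had means of 2.94, 2.62 and 3.74 and were called in no step.

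**Figure D3:**
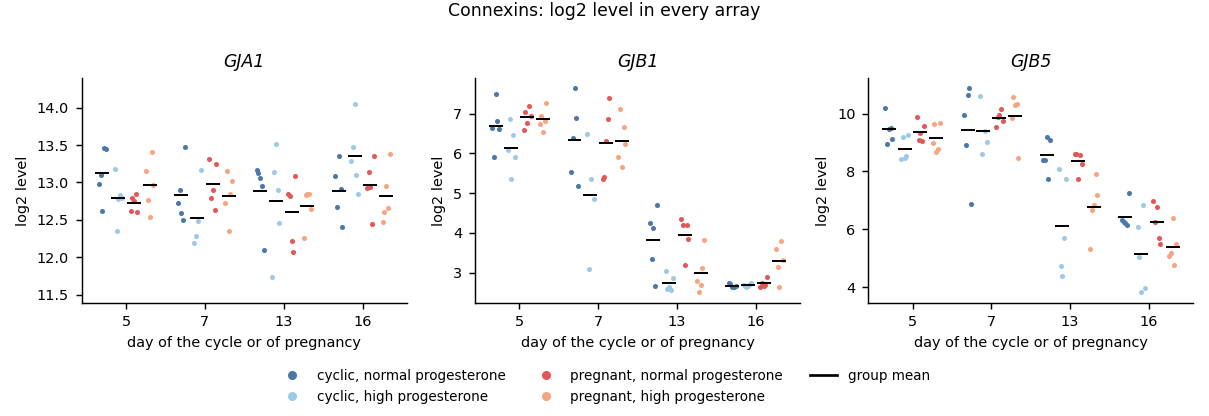
Log2 level of 3 connexins in every array (points) by day, coloured by group, with group means as black bars. GJA1 is level near 13, and GJB1 drops to near the floor of the values in most arrays by day 13. GJB5 falls from day 7 to day 16, with the high progesterone groups of day 13 (means of 6.13 and 6.79) below the normal ones (8.56 and 8.35).

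KRT7 and KRT19 fell early, between day 5 and day 7, and KRT10 fell after day 7. KRT7 (gene ID 535697), a keratin of ducts and glands, ran from 4.93 to 8.40 with a median of 7.25 on day 5 and from 3.73 to 8.01 with a median of 4.42 on day 7; on days 13 and 16 the medians were 4.75 and 5.54. The high value of day 7 was that of CN 5, and the next array of that day was at 5.90. KRT7 fell by 2.46 ± 0.26 from day 5 to day 7, a 5.51-fold decrease (adjusted p = 2.35e-10), and the later differences of 0.21 and 0.70 were not called (adjusted p = 0.59 and 0.082). KRT19, the smallest of the simple-epithelial keratins, fell with it by 1.41 ± 0.18 (adjusted p = 1.03e-08), from a range of 8.24 to 10.55 on day 5 to one of 7.21 to 9.56 on day 7.

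KRT19 went down a further 0.49 ± 0.18 to day 13 (adjusted p = 0.0232), a call that was lost without day 7 CH 2 (-0.42, adjusted p = 0.0597) and without day 13 PH 4, the array with high smooth muscle markers (-0.39, adjusted p = 0.0587). KRT10, best known from differentiated skin, was called in the later steps: its day medians were 9.70, 9.83, 8.63 and 8.003, with falls of 1.25 ± 0.14 from day 7 to day 13 (adjusted p = 6.61e-12) and 0.60 ± 0.13 from day 13 to day 16 (adjusted p = 0.00165). KRT18 was not called in any step, with differences of -0.11, -0.14 and 0.17 (adjusted p = 0.51, 0.32 and 0.37). The epithelial marker mean on the 4 days was 8.39 ± 0.13, 8.28 ± 0.15, 8.41 ± 0.29 and 8.56 ± 0.20 (n = 20, 19, 20 and 20), and from day 5 to day 7, the step in which KRT7 and KRT19 fell, 2 of the 13 markers rose and 2 fell. In that step 5 of 12 stromal, 5 of 14 leukocyte and 2 of 8 smooth muscle markers fell and none of these rose. Of all probe sets 11.8% were called lower and 8.84% higher. The stromal mean ran from 10.76 to 11.23 on day 5 and from 10.65 to 11.23 on day 7. The leukocyte mean ran from 4.45 to 7.93 and from 4.07 to 5.88. The smooth muscle mean ran from 7.48 to 11.44 and from 6.99 to 11.004. Their part in the falls of that step, that of CDH13 included, was not tested. KRT5, a basal cell keratin near the floor at 3.18 ± 0.34 on day 5, fell by 0.23 ± 0.07 to day 7 (adjusted p = 0.0119).

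**Figure D4:**
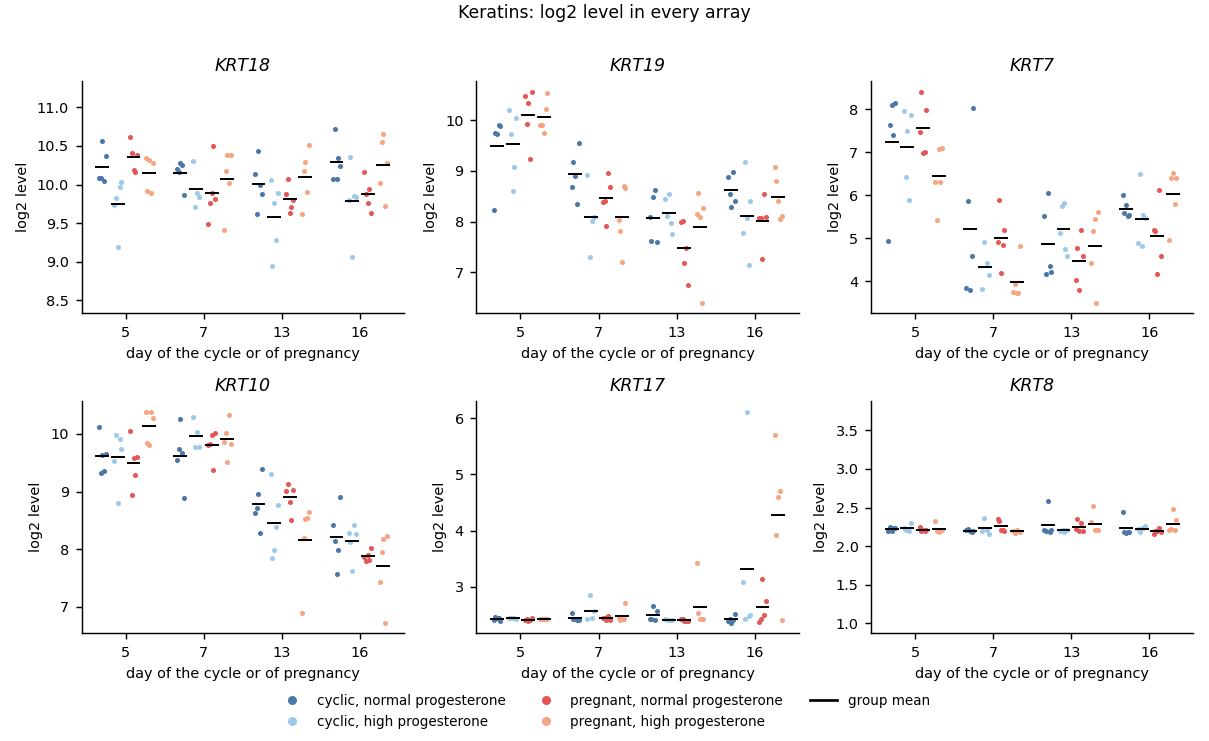
Log2 level of 6 keratins in every array (points) by day, coloured by group, with group means as black bars. KRT7 and KRT19 drop between day 5 and day 7, KRT10 drops after day 7, KRT17 leaves the floor in some arrays of day 16, KRT18 stays near 10, and KRT8 stays at the floor throughout.

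The core genes of the adherens junction showed small differences. CDH1 (E-cadherin, gene ID 282637) had day medians of 9.22, 9.56, 9.57 and 9.75, with overlapping days. It rose by 0.33 ± 0.11 from day 5 to day 7 (adjusted p = 0.0302; its second probe set rose by 0.61 ± 0.18) and by 0.37 ± 0.11 from day 13 to day 16 (adjusted p = 0.0236). The first rise was not called without any 1 of 7 arrays (day 5 CN 5 and CH 3, day 7 CN 3, CN 4, CH 5, PN 3 and PH 2), with adjusted p up to 0.0813, and the second not without day 13 PH 4 (0.30, adjusted p = 0.0553). From day 5 to day 7 the difference was 0.53 in cyclic (adjusted p = 0.0224) and 0.12 in pregnant heifers (adjusted p = 0.84). From day 13 to day 16 it was 0.08 in cyclic (adjusted p = 0.90) and 0.67 in pregnant heifers (adjusted p = 0.00307). Whether cyclic and pregnant heifers differed was tested for the later step alone, where the change of the pregnancy effect, 0.59 ± 0.22, was not called (adjusted p = 0.37). CTNNB1 (beta-catenin), which binds the tail of E-cadherin and also carries Wnt signals, stayed between 11.92 and 13.02 and was called in no step (differences of -0.01, -0.12 and -0.14). CTNNA1 (alpha-catenin), which ties that complex to actin, was called in all 3 steps with small differences of -0.23 ± 0.04, 0.29 ± 0.04 and 0.13 ± 0.04.

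CTNNBIP1 encodes an inhibitor that keeps beta-catenin from its transcription factors and is no structural part of the junction. It rose by 0.32 ± 0.11 from day 5 to day 7 (adjusted p = 0.0261) and fell by 0.93 ± 0.11 to day 13 (adjusted p = 7.09e-11) and by 0.42 ± 0.11 to day 16 (adjusted p = 0.00545). The rise was not called without any 1 of 4 arrays, day 5 PN 2 and day 7 CN 3, CN 4 and CH 5, with adjusted p up to 0.0579. It was 0.11 in cyclic (adjusted p = 0.71) and 0.53 in pregnant heifers (adjusted p = 0.0111), and whether these differ was not tested. CTNNAL1, an alpha-catenin-like protein, fell by 0.45 ± 0.12 from day 13 to day 16 (adjusted p = 0.0102) and by 0.70 ± 0.13 on its other probe set (adjusted p = 9.79e-05).

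CDH17, the cadherin of intestinal epithelium, rose with CLDN4. Its arrays ran from 5.83 to 9.80 with a median of 7.69 on day 5, from 4.41 to 9.53 with a median of 7.71 on day 7, from 7.65 to 9.79 with a median of 9.15 on day 13, and from 6.67 to 9.93 with a median of 8.63 on day 16. The early days were widely spread, with an SD of 1.12 and 1.30 against 0.63 and 0.78 later, and the days overlapped. The rise from day 7 to day 13 was 1.46 ± 0.31, a 2.75-fold increase (adjusted p = 8.75e-05), 1.17 in cyclic and 1.75 in pregnant heifers. CDH16, the kidney cadherin, rose by 0.53 ± 0.11 in that step (adjusted p = 6.33e-05) from a floor of 2.20 ± 0.05 (n = 19) to 2.73 ± 0.63 (n = 20), and fell by 0.34 ± 0.11 to day 16 (adjusted p = 0.0367). That fall was not called without any 1 of 16 of the 40 arrays (day 13 CN 1, CN 4, CH 1, PN 2, PN 4, PH 1, PH 2 and PH 5, day 16 CN 1, CN 4, CN 5, PN 3, PN 5, PH 1, PH 2 and PH 3), with adjusted p up to 0.0869. CDH13, a cadherin without a cytoplasmic tail, fell by 0.56 ± 0.16 from day 5 to day 7 (adjusted p = 0.00855) and rose by 0.42 ± 0.16 to day 13 (adjusted p = 0.0345), while CDH2 and CDH11 were called in no step.

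Desmosome genes split. DSC2, the most widespread desmocollin, fell by 0.42 ± 0.14 from day 5 to day 7 (adjusted p = 0.0266) and then rose by 0.69 ± 0.14 (adjusted p = 6.02e-05) and 0.46 ± 0.14 (adjusted p = 0.0293). PKP4, a plakophilin-related protein of adherens junctions and desmosomes, rose by 0.71 ± 0.12 to day 13 (adjusted p = 1.06e-06) and by 0.38 ± 0.12 to day 16 (adjusted p = 0.0255). PKP2, a desmosomal plaque protein, fell by 0.39 ± 0.15 to day 13 (adjusted p = 0.0324; 0.54 ± 0.16 on its other probe set), and JUP (plakoglobin) by 0.30 ± 0.12 (adjusted p = 0.0379). DSC1 and PKP1, both known from skin, were called in that step close to the floor, with 0.66 ± 0.22 (adjusted p = 0.0133) and -0.35 ± 0.13 (adjusted p = 0.0284). The second probe set of DSC1 gave 0.19 ± 0.12 (adjusted p = 0.24) and was not called. The brighter one gave 0.33 in cyclic (adjusted p = 0.43) and 0.9963 in pregnant heifers (adjusted p = 0.0107), and whether these differ was not tested.

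Several of these smaller calls rested on single arrays or on fits that share the spread over all days. In fits of the days concerned alone, the early differences of CLDN6, CLDN7, CTNNBIP1 and KRT5, the fall of PKP2 to day 13 and the last differences of CDH16, DSC2 and KRT17 were not called (adjusted p between 0.0529 and 0.178). In cyclic heifers alone 25 of 48 gene results kept their call, and in pregnant heifers alone 28 of 48. The fall of DSC2 was not called without day 5 CN 3, day 5 PH 4 or day 7 CH 3 (adjusted p up to 0.0661), and its last rise not without day 13 CH 2, CH 5 or PH 1 (adjusted p up to 0.0621), nor with array weights (0.32, adjusted p = 0.0733). The last rise of PKP4 was not called without day 13 CH 5, with 0.35 and an adjusted p just over the threshold. PKP2 on its brightest probe set was not called without any 1 of 9 arrays (day 7 CN 2, CH 2, CH 4, CH 5, PN 2 and PH 2, day 13 CN 1, CH 2 and PH 1; adjusted p up to 0.071), and PKP1 not without day 7 CN 1, CH 5 or PN 2 (adjusted p up to 0.0763).

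**Figure D5:**
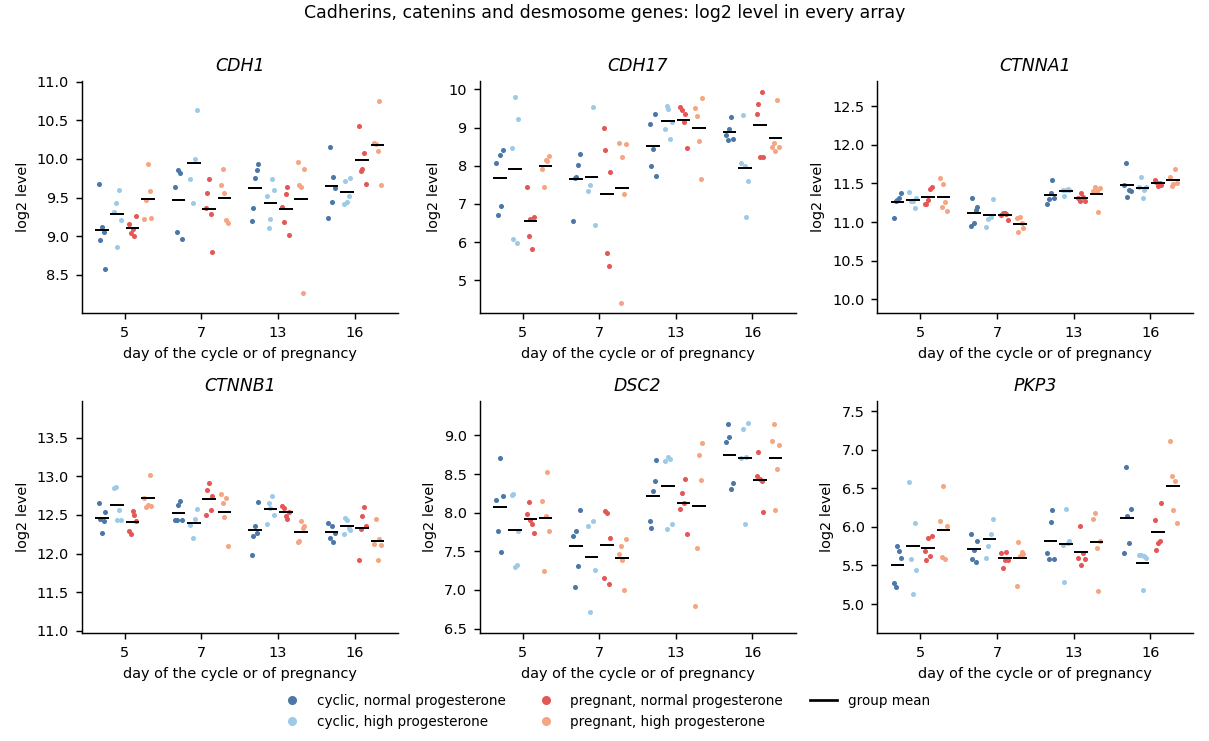
Log2 level of 6 cadherin, catenin and desmosome genes in every array (points) by day, coloured by group, with group means as black bars; each vertical axis spans at least 3 log2 units. CTNNA1 and CTNNB1 are nearly level, CDH17 is widely spread on days 5 and 7 and higher on day 13, and PKP3 on day 16 is highest in PH (6.53) and lowest in CH (5.53).

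Of 40 partners and regulators measured 4 rose and 4 fell from day 5 to day 7, where 20.7% of all probe sets were called. From day 7 to day 13, against 36.9% of all, 15 rose and 12 fell. From day 13 to day 16, against 8.65% of all, 1 rose and 2 fell. In the first and the last step these counts were near the background. For the middle step they cannot be read as an excess of partners, because the lists were written with earlier results of these data known. Most listed genes also had a mean above 3, whereas 32.2% of all probe sets had a mean under 3. In the adherens list of 7, PDLIM1, an actin-binding protein, fell by 1.05 ± 0.11 and then 0.73 ± 0.11, and ACTN4, an actin crosslinker, rose by 0.75 ± 0.07 to day 13. In the polarity list of 8, DLG5, a scaffold of the lateral membrane, fell by 1.49 ± 0.09 from day 7 to day 13, with 2 members of the list rising and 4 falling. In the desmosome list of 5, PERP, a desmosomal membrane protein, fell by 0.55 ± 0.12 from day 5 to day 7, and ITGB4, the hemidesmosome integrin, fell by 0.93 ± 0.19 and 0.79 ± 0.19 in the later steps. Among 8 regulators of epithelial identity 3 rose and 3 fell from day 7 to day 13. The rises included those of KLF5, by 0.79 ± 0.08, and OVOL1, by 0.45 ± 0.16. GRHL1 fell by 0.73 ± 0.13, ESRP1, an epithelial splicing factor, by 0.34 ± 0.09 and ELF3 by 0.34 ± 0.10.

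Pregnancy was compared with the cycle on each day, averaged over normal and high progesterone. On days 5, 7 and 13 none of the 94 members was called, where 0.0167%, 0% and 0% of all probe sets were; 9, 7 and 3 members had an unadjusted p under 0.05 by limma. On day 16, the time at which the conceptus signals its presence, 1 member was called, with 3.16% of all probe sets called. That member was CLDN4. With array weights the count was 13, and without the arrays that stood apart it was 6. The share of all probe sets called in those fits is not given here, so these counts have no background beside them. In the main fit of the same comparison 512 of 24016 probe sets were called higher and 247 lower. Of the markers, 5 of 13 endothelial and 2 of 12 stromal ones were lower and none higher. In contrast, 1 of 13 epithelial and 2 of 14 leukocyte markers were higher and none lower. Endothelial means lay between 5.58 and 6.39 in the cyclic and between 5.01 and 6.13 in the pregnant arrays, and stromal means between 10.44 and 11.09 and between 10.28 and 11.05. The part of these markers in the values of CLDN4 and CDH11 was not tested. For CLDN4 the CN arrays of day 16 held 10.46, 10.30, 9.14, 10.25 and 10.20, and the CH arrays 9.40, 8.72, 10.42, 8.96 and 8.66. The PN arrays held 10.96, 10.81, 9.66, 10.64 and 10.23, and the PH arrays 11.003, 10.53, 10.75, 11.74 and 9.96.

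The pregnancy difference of CLDN4 on day 16 was 0.98 ± 0.26 (adjusted p = 0.0196). With high progesterone the 2 groups overlapped in CH 3 and PH 5 alone, and the difference was 1.56 (adjusted p = 0.00353); with normal progesterone it was 0.39 (adjusted p = 1.00) and the groups overlapped. The test of the difference between those 2 values gave 1.17 ± 0.53 (adjusted p = 0.30), so they were not shown to differ. The call was lost without CN 3 (0.86, adjusted p = 0.0647), without CH 5 (0.91, adjusted p = 0.0519) and without PH 4 (0.86, adjusted p = 0.0823), and in a fit of day 16 alone (0.98, adjusted p = 0.0825). CDH11, a mesenchymal cadherin named after its values were seen, and CDH1 came next by p and did not pass, with -0.63 ± 0.19 (adjusted p = 0.051) for CDH11 and 0.82 ± 0.25 (adjusted p = 0.0567) and 0.47 ± 0.16 (adjusted p = 0.0891) for the probe sets of CDH1. The number of members called moved between 0 and 7 when 1 array was left out: 7 without PH 5, 3 without CN 2 or CH 2, and 2 without CN 5, CH 1, CH 3, CH 4, PN 5 or PH 2. The share of all probe sets called in these fits is not given here, so the counts have no background beside them.

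The pregnancy effect was also compared between days 13 and 16, and none of the 94 members was called (0.974% of all probe sets were), with 5 members at an unadjusted p under 0.05 by limma. Without day 16 CH 3, 1 member was called, and the share of all probe sets called in that fit is not given here. For CLDN4 the pregnancy effect was higher on day 16 by 0.79 ± 0.37 (adjusted p = 0.61), which is not a call.

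High progesterone was compared with normal progesterone on each day, averaged over cyclic and pregnant heifers, and 1 member was called on each of the last 3 days. On day 5 none was called against 0.908% of all probe sets, with 5 members at an unadjusted p under 0.05 by limma. On day 7, with 4.7% of all probe sets called, 1 member was, CLDN11. Its CN arrays held 7.11, 7.02, 6.82, 6.59 and 6.43, and its CH arrays 4.03, 4.42, 6.35 and 4.48, so that all CH arrays were below all CN arrays. Its PN arrays held 7.29, 5.31, 5.13, 6.70 and 7.10, and its PH arrays 4.98, 5.09, 6.55, 5.19 and 5.19, which overlapped.

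In cyclic and pregnant heifers taken alone, the difference of CLDN11 on day 7 was -1.98 (adjusted p = 0.0433) and -0.91 (adjusted p = 0.755). No interaction was called for it on that day, so these 2 values were not shown to differ. Averaged over both, the difference was -1.44 ± 0.40 (adjusted p = 0.023). It was not called without CH 3 (-1.37, adjusted p = 0.0578), the array of that group that stood apart, without PN 1 (-1.32, adjusted p = 0.0523) or without PN 5 (-1.34, adjusted p = 0.0565). The count of members called on day 7 was 4 without CH 2 and 2 without CH 4 or CH 5. The share of all probe sets called in those fits is not given here, so these counts have no background beside them. Without the arrays that stood apart the difference was -1.42 (adjusted p = 0.0648) and no member was called. On day 5 values near 4 and values above 6 occurred in both cyclic groups, and the CLDN11 means of CN and CH were 5.53 ± 1.13 and 5.52 ± 1.25 (n = 5 each).

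On day 13 GJB5 was called, where 0.441% of all probe sets were. With array weights the count of members was 3, and the share of all probe sets called in that fit is not given here. The CN arrays held 8.38, 8.41, 9.20, 7.73 and 9.09, and the CH arrays 8.10, 4.74, 4.40, 5.69 and 7.73. The PN arrays held 8.60, 8.60, 7.76, 8.57 and 8.24, and the PH arrays 5.31, 6.66, 6.86, 7.92 and 7.18. The difference was -1.999 ± 0.38, a 4.00-fold decrease (adjusted p = 0.0016), and leaving out any 1 array gave between -2.24 and -1.78 with adjusted p up to 0.0116. It was -2.43 in cyclic (adjusted p = 0.0209) and -1.57 in pregnant heifers (adjusted p = 0.318). No interaction of GJB5 was called on day 13, so these 2 values were not shown to differ. Without the arrays that stood apart the difference over both was -1.94 (adjusted p = 0.0012), and in a fit of day 13 alone it was not called (adjusted p = 0.0844). The means of CH and PH on day 13, 6.13 ± 1.70 and 6.79 ± 0.95, were near those of CN and PN on day 16, 6.44 ± 0.45 and 6.24 ± 0.64 (n = 5 each). This likeness was not tested, and the CH arrays of day 13 were spread from 4.40 to 8.10.

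On day 7 the same contrast of GJB5 was 0.00 ± 0.39, and the change of the progesterone effect from day 7 to day 13, a comparison added after the data were seen, was -2.001 ± 0.55 (adjusted p = 0.0412). It was the only member called in that comparison, in which 1.44% of all probe sets were. The call was lost without any 1 of 18 of the 39 arrays of those days (day 7 CN 2, CN 5, CH 2, PN 1, PN 5, PH 2, PH 3 and PH 4, day 13 CN 3, CN 5, CH 2, CH 3, CH 4, PN 1, PN 2, PN 4, PH 1 and PH 2), with values from -1.68 to -1.99 and adjusted p up to 0.0921. In a limma fit of days 7 and 13 alone this change of GJB5 was not called (adjusted p = 0.146). Nor was it called without the arrays that stood apart (-1.75, adjusted p = 0.0954). Without day 13 CH 1, 2 members were called, and the share of all probe sets called in that fit is not given here. On day 13 GJB1 came next to GJB5 by p, lower by 1.03 ± 0.27 on the log2 scale and not called (adjusted p = 0.0596); it is named after its values were seen. A second member was called on day 13 without CN 4, CH 1, PN 3 or PH 5, again without a share of all probe sets beside it. On day 16 the difference of GJB5 was -1.07 ± 0.38 (adjusted p = 0.27).

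On day 16 KRT17, a keratin of wounded and stratified epithelium, was the member called, where 0.0958% of all probe sets were. With array weights 27 members were called, and without the arrays that stood apart 10 were. The share of all probe sets called in those fits is not given here, so these counts have no background beside them. KRT17 was at the floor, between 2.36 and 2.51, in all CN arrays, while the CH arrays held 3.09, 2.42, 6.11, 2.48 and 2.5001. The PN arrays held 2.37, 2.42, 3.14, 2.49 and 2.74, and the PH arrays 5.71, 3.92, 4.61, 4.70 and 2.41. Thus 4 of 5 PH arrays and CH 3 stood well above the rest. The difference was 1.27 ± 0.23 (adjusted p = 0.0086), 0.90 in cyclic heifers (adjusted p = 0.117) and 1.64 in pregnant heifers (adjusted p = 0.0214). It lay between 0.92 and 1.503 with any 1 array left out (adjusted p up to 0.0349). All these fits share 1 spread over the 16 groups, and KRT17 was at the floor in most arrays. Their SE and p therefore do not measure the wide spread of the CH and PH arrays of day 16. In a fit of day 16 alone the difference was not called (adjusted p = 0.289). No interaction of KRT17 was called on that day, so the cyclic and pregnant values were not shown to differ. The change of KRT17 from day 13 to day 16 over all arms, 0.67 ± 0.16 (adjusted p = 0.00416), is a change of a gene at the floor in most arrays, with day 13 values up to 3.42.

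The interaction of pregnancy and progesterone called 1 member, PKP3 on day 16, where 0.87% of all probe sets were called. PKP3 is a plakophilin of desmosomes in simple and stratified epithelia. Its CN arrays held 5.66, 6.78, 6.14, 5.79 and 6.23, and its CH arrays 5.64, 5.64, 5.18, 5.62 and 5.59. Its PN arrays held 6.09, 5.70, 5.79, 5.81 and 6.31, and its PH arrays 7.12, 6.65, 6.22, 6.60 and 6.05. High progesterone thus went with lower levels in cyclic and higher levels in pregnant heifers: all CH arrays were below all CN arrays, while PN and PH overlapped.

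The interaction of PKP3 was 1.18 ± 0.28 (adjusted p = 0.0251). It was not called without CN 2 (1.02, adjusted p = 0.0754), CH 3 (1.09, adjusted p = 0.0809), PN 3 (1.14, adjusted p = 0.0596) or PH 1 (1.03, adjusted p = 0.0631), nor in a fit of day 16 alone (adjusted p = 0.144). Without CH 2, 3 members were called. With array weights 12 members were called, and without the arrays that stood apart 2 were, and the share of all probe sets called in those fits is not given here. On days 5, 7 and 13 no member had a called interaction, against 0%, 0.025% and 0.0208% of all probe sets, with 1, 25 and 13 members at an unadjusted p under 0.05 by limma. On day 7 the count went from 0 to 16 without CH 2 and to 19 without CH 5. It stayed at 0 without any other 1 array of that day, and the cause was not tested. The share of all probe sets called in the fits without CH 2 or CH 5 is not given here. In the main fit 4658 of 24016 probe sets had an unadjusted p under 0.05 by limma for the day 7 interaction.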

How the data were processed

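The values are log2 expression levels deposited by the authors for 79 Affymetrix bovine arrays; RMA, GCRMA and limma are named in the submitters' processing notes, and which of RMA and GCRMA made these values is not given in the sources used here. Background and scale were therefore taken as deposited. Probe sets were named by the platform annotation, where 13292 had a single symbol, 86 had several and 10638 had none; 112 control probe sets were left out. The members and gene lists were chosen with earlier results of these data known.

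A mean for each of the 16 groups was fitted with limma 3.58.1 in R 4.3.3 to each of the 24016 probe sets over all arrays. The groups shared 1 estimate of the spread per probe set (63 residual degrees of freedom), and p was adjusted by the Benjamini-Hochberg method. Day steps average the 4 arms, and pregnancy and progesterone effects average the other factor. The interaction is the progesterone effect in pregnant heifers (PH minus PN) minus that in cyclic heifers (CH minus CN). The code was tested on simulated data. Named genes were the 10 called members with the largest rise and the 10 with the largest fall in a comparison, CDH1, KRT8, KRT18, KRT19, CLDN4, CLDN10, TJP1, JUP, GJA1 and CTNNB1 in any, up to 3 called partners per list, and EPCAM, ELF3, ESRP1, F11R and CGN. CDH5, CDH13 and CTNNA1 from day 7 to day 13, and all other members given where they were not called were named after their values were seen. OCLN, DSP, GRHL2 and PPL were not analysed here. Alternatives were quantile normalization, array weights, trend and robust moderation, a replicate block, brighter probe sets only, subsets of arrays and leaving out each array in turn. No scan date or slide was available as a label, so such batches were not tested.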

Additional observations from a re-analysis of the deposited data

Results flagged for a closer look

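Among 12 of the described genes and their 192 groups of arrays, 17 groups held an array far from the others, where chance gives about 1 in 20; their causes were not tested. On day 5, KRT7 (4.93) and KRT19 (8.24) were lowest in CN 1, and CLDN10 (9.96) in PH 3. On day 7, PH 5, an array with high smooth muscle markers, was highest for CLDN4 (7.65), KRT7 (4.81) and KRT17 (2.71), CN 1 was highest for KRT17 (2.53) and PH 3 for CLDN11 (6.55). On day 13, PH 1, an array that stood apart, was lowest for CLDN10 (4.97) and KRT10 (6.89) and highest for KRT17 (3.42), and PH 4, with high smooth muscle markers, was lowest for KRT19 (6.41). On day 16, CN 3 was lowest for CLDN4 (9.14), CN 5 highest for GJB5 (7.24), CH 3 highest for KRT17 (6.11) and lowest for PKP3 (5.18), and PH 4 highest for CDH17 (9.72).

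Effects called as different between groups in the main fit concerned PKP3 and GJB5. The progesterone effect on PKP3 on day 16 differed between pregnant and cyclic heifers by 1.18. The progesterone effect on GJB5 was lower on day 13 than on day 7, with a difference of -2.001, in a comparison added after the data were seen. Neither was called in limma fits of the days concerned alone (adjusted p = 0.144 and 0.146). Leaving out 1 array lost the call for 4 of 20 arrays with PKP3 and for 18 of 39 with GJB5.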

How the results depend on the processing

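No value reversed its direction in any alternative. Of 50 gene results 35 kept their call without any 1 array and 15 lost it for at least 1; all 50 kept it with quantile normalization, trend and robust moderation and the replicate block, 48 with array weights (GJB1 from day 5 to day 7 and DSC2 from day 13 to day 16 lost it), and 36 in fits of the days concerned alone. Counts of members called that moved by over 1.5 times were as follows. For pregnancy on day 16, 1 became 2 with quantile normalization and with trend and robust moderation, 3 with brighter probe sets only, 13 with array weights, 4 without the arrays with smooth muscle RNA, 6 without the arrays that stood apart, 0 with day 16 alone, 0 with normal progesterone only and 5 with high progesterone only. For progesterone on day 16, 1 became 0 with brighter probe sets only, 27 with array weights, 10 without the arrays that stood apart and 0 with day 16 alone. For progesterone on day 13, 1 became 3 with array weights, 2 without the arrays that stood apart, 0 with that day alone, 2 in cyclic and 0 in pregnant heifers. For progesterone on day 7, 1 became 0 without the arrays that stood apart, 0 with that day alone, 3 in cyclic and 0 in pregnant heifers; on day 5, 0 became 1 with array weights. For the interaction on day 16, 1 became 12 with array weights, 2 without the arrays that stood apart and 0 with that day alone; on day 13, 0 became 10 with array weights. The change of the pregnancy effect went from 0 to 1 with array weights, and that of the progesterone effect from 1 to 2 with array weights and to 0 without the arrays that stood apart, in cyclic and in pregnant heifers. From day 5 to day 7, 16 became 8 in cyclic and 6 in pregnant heifers; from day 13 to day 16, 11 became 19 with array weights and 2 in cyclic heifers. The shares of all probe sets called that are given above belong to the main fit. Those of the alternative fits and of the fits without 1 array are not given here. A moved count is therefore not set against a background, and the causes were not tested.

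Leaving out 1 array gave 14 to 17, 26 to 33 and 9 to 13 members in the 3 day steps, 0 to 7 for pregnancy on day 16, 0 to 4, 1 to 2 and 1 to 1 for progesterone on days 7, 13 and 16, 0 to 19 and 0 to 3 for the interaction on days 7 and 16, 0 to 1 for the change of the pregnancy effect and 0 to 2 for that of the progesterone effect.

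Replicate numbers did not pair the arrays: the mean correlation of same-numbered arrays was 0.0294, 0.0467, 0.0228 and -0.00919 on days 5, 7, 13 and 16. With the replicate block the day steps called 17, 30 and 11 members, and pregnancy on day 16 called 2. Signal over background limits the 47 members with a mean under 3, where differences are compressed; 1, 3 and 2 of them were called in the 3 day steps and 1 for progesterone on day 16.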
